A study of Mus musculus with 8 samples.

Results

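The subunits of the transcription factor NF-κB and the proteins that hold it back were followed across RNA sequencing libraries of mouse Treg cells, the Foxp3+ T cells that restrain immune responses, with and without BRG1, the ATPase of the BAF chromatin remodelling complex. The set was chosen by name and holds 10 genes of the 53465 gene identifiers in the files. They are the subunit genes *Nfkb1*, *Nfkb2*, *Rel*, *Rela* and *Relb*, the inhibitor genes *Nfkbia*, *Nfkbie* and *Tnfaip3*, and the genes of the IκB-like nuclear proteins *Nfkbiz* and *Bcl3*. All 10 passed the filter on low values, at least 5 CPM (recovered reads relative to the library total) in either library, in every comparison.

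There were 8 libraries, 1 per condition, in 2 experiments that were sequenced separately, and the total Treg and aTreg experiments were therefore never compared with each other. All mice were given as C57BL/6 and between 3 and 4 weeks old, and the cells came from spleen and lymph nodes. The paper states that mice with the reversible knockout allele were created on a mixed background. They were backcrossed to C57BL/6 for fewer generations than the other strains. In the total Treg experiment, WT cells carried R26 CAG-FlpoER, 1 floxed and 1 intact *Brg1* allele (F/+) and *Foxp3* YFP-Cre/+, so that these controls also express Cre and are heterozygous for the floxed allele. The mosaic females carried R26 CAG-FlpoER too, with the floxed allele over the reversible knockout allele (F/ΔR) and *Foxp3* YFP-Cre on 1 X chromosome. Their *Brg1*-sufficient Treg cells are labelled *Foxp3* +/+ and used the *Foxp3* copy without Cre, and their *Brg1*-deleted Treg cells are labelled *Foxp3* YFP-Cre. The rKO1 mice, F/ΔR with *Foxp3* YFP-Cre/YFP-Cre and R26 CAG-FlpoER, gave a library without treatment and, on Day 7 after tamoxifen (TAM), a GFP+ library that was still *Brg1*-deleted and a GFP− library in which *Brg1* was reexpressed, for which the label gives the *Brg1* genotype as F/+. The aTreg experiment held activated (CD44-high, CD62L-low) Treg cells that were sorted from rKO1 mice 7 days after TAM, labelled *Brg1*-deleted and *Brg1*-reexpressed. The aTreg library labelled *Brg1*-deleted is, however, headed as a WT sample in its own file and its genotype is given as F/F. The Cre is driven by *Foxp3*, so deletion is limited to cells that have switched *Foxp3* on, and GFP loss marks cells in which the trap was excised. The design text of the series names a different knockout (Nrl-/-) and triplicates, which match neither the sample labels nor the files. Whether the animals of a library were pooled is not given in the sources used here.

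In resting T cells the NF-κB dimers are kept in the cytoplasm by IκB proteins. T cell receptor and TNF receptor signals activate IκB kinases, IκBα is degraded and the dimers enter the nucleus. There they induce, among many others, the genes of their own inhibitors IκBα and A20, a feedback that ends the signal. In Treg cells c-Rel and p65 are known for their part in *Foxp3* expression and in the activated state.

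NF-κB is known to bind 10-base κB sites in the promoters of several of these genes. Of the 10 genes, 7 have a promoter window in RefSeq (GRCm38.p6, 250 bases before the start were searched), and *Nfkb1*, *Relb* and *Nfkbiz* have none there. The 10-base κB consensus, searched on both strands, was present in 5 of those 7 genes (71.4%), against 8.23% of the 27025 genes with a window and 7.25% of all 32851 windows. Windows of 30 bases around 1 match per gene are shown because the inhibitor genes and some subunit genes carry these letters close to their starts, while no match was found in the windows of *Rela* and *Bcl3*. Capitals mark the matching letters. In *Rel* and *Nfkb2* they cover 2 matches that overlap by all but 1 base.
*Nfkbia* promoter, minus strand, chr12:55492657-55492686: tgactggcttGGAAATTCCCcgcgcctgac
*Tnfaip3* promoter, minus strand, chr10:19015411-19015440: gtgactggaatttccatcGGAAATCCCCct
*Rel* promoter, minus strand, chr11:23771042-23771071: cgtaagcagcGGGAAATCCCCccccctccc
*Nfkbie* promoter, plus strand, chr17:45555584-45555613: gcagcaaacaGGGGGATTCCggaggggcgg
*Nfkb2* promoter, plus strand, chr19:46304688-46304717: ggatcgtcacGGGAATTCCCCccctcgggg
The capitals end 19 bases before the RefSeq start in *Nfkbia*, 2 in *Tnfaip3*, 81 in *Rel*, 96 in *Nfkbie* and 28 in *Nfkb2*. *Tnfaip3* has another match that ends 115 bases before the start, and *Nfkb2* has 3 more in its windows. The RefSeq starts of *Tnfaip3* and *Nfkb2* lie 247 and 417 bases inside the GENCODE gene, so the window of *Tnfaip3* overlaps the start of the annotated gene, and the windows of *Nfkb2* and the match shown lie wholly inside it. A match is a match of letters, and binding was not measured here.

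The deposited values are FPKM, fragments scaled by exon length and by library size, with the library scaling of the authors. Reads were recovered from them and ranged from 16324019 to 24093554 per total Treg library and from 17436223 to 19975022 per aTreg library. *Smarca4*, the gene for BRG1, had 14.8 FPKM in WT cells, 12.1 and 7.44 FPKM in mosaic *Brg1*-sufficient and *Brg1*-deleted cells, 7.34 FPKM in untreated rKO1 cells, and 6.13 and 9.52 FPKM in GFP+ and GFP− cells after TAM, and it was thus lower in each deleted library than in each BRG1-containing library. This gene-level value includes exons outside the deletion. In aTreg cells *Smarca4* had 11.1 FPKM in the library labelled *Brg1*-deleted and 9.02 FPKM in the library labelled *Brg1*-reexpressed, against the labels. *Foxp3* was present in all 8 libraries, from 13.4 to 137 FPKM. Among the total Treg libraries it was 137 FPKM in mosaic *Brg1*-sufficient cells and at most 62.7 FPKM in the others. The mosaic *Brg1*-sufficient library is also the only total Treg library labelled *Foxp3* +/+, and the part of the Cre allele in this value was not tested. In bulk libraries, fewer cells of a type and less RNA per cell cannot be told apart.

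With 1 library per condition there is no replicate check and no test. A difference is given as a ratio of FPKM with an exact 95% binomial interval of the recovered reads, which covers counting error only, and is set beside a library-to-library band. The band holds 95% of the absolute log2 ratios of the 500 genes closest to a gene in level, taken from the pairs WT with mosaic *Brg1*-sufficient and untreated with TAM-treated *Brg1*-deleted rKO1, whichever is wider. It cannot judge those pairs themselves, and for aTreg cells it is borrowed from the total Treg experiment. Differences of at least 2-fold are counted beside the share of all tested genes that differ as much.

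Among the subunits, those of the canonical pathway spanned less than 2-fold. *Rela*, which encodes the transactivating subunit p65 (ENSMUSG00000024927, GRCm38 chr19:5637483-5648130), had 33.5 FPKM in WT, 42.8 in mosaic *Brg1*-sufficient, 46.4 in mosaic *Brg1*-deleted, 41.9 in untreated rKO1, 38.8 in GFP+ and 29.0 FPKM in GFP− cells. It was the most abundant subunit in every library of both experiments, and its levels spanned 1.60-fold across the 6 total Treg libraries. *Nfkb1*, which encodes p105 and its product p50 (ENSMUSG00000028163, chr3:135584655-135691547), had 9.64, 10.4, 9.73, 12.9, 12.8 and 7.28 FPKM in the same order. Its levels were highest in both *Brg1*-deleted rKO1 libraries and lowest in the GFP− library. *Rel*, which encodes c-Rel (ENSMUSG00000020275, chr11:23736847-23770970), had 5.77, 8.12, 6.63, 6.53, 9.37 and 4.91 FPKM in that order. It too was highest in the GFP+ and lowest in the GFP− library. The whole log2 range of each of these 3 subunits and of *Nfkb2* and *Relb* was between 0.68 and 0.94. The band at their levels was at least 1.01, so no neighbouring libraries in their orders could differ beyond it.

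The subunits of the alternative pathway are encoded by *Nfkb2* (p100 and p52, ENSMUSG00000025225, chr19:46304320-46312385) and *Relb* (ENSMUSG00000002983, chr7:19606217-19629438). *Nfkb2* had 19.2 FPKM in WT, 18.4 in mosaic *Brg1*-sufficient, 13.7 in mosaic *Brg1*-deleted, 26.3 in untreated rKO1, 20.9 in GFP+ and 19.5 FPKM in GFP− cells. Of its exon bases, 18.1% overlap *Psd* and *AC114539.1*, so reads there cannot be assigned to *Nfkb2* with certainty. *Relb* had 13.1, 18.4, 10.4, 19.4, 13.2 and 11.8 FPKM in the same order. Both were lowest in mosaic *Brg1*-deleted cells and highest in untreated rKO1 cells, although both of these libraries are *Brg1*-deleted.

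Of the inhibitors, *Nfkbia* and *Tnfaip3* covered a wider range than any subunit. *Nfkbia*, which encodes IκBα (ENSMUSG00000021025, chr12:55489410-55492647), was by far the most abundant of the 10 genes, with 1579 FPKM in WT, 701 in mosaic *Brg1*-sufficient, 478 in mosaic *Brg1*-deleted, 640 in untreated rKO1, 1246 in GFP+ and 823 FPKM in GFP− cells. WT and GFP+ cells stood above the other libraries, and 1 of them contains BRG1 and the other does not. *Nfkbie*, which encodes IκBε (ENSMUSG00000023947, chr17:45555703-45563169), stayed between 15.1 and 23.3 FPKM, the narrowest span of the 10 genes at 1.55-fold. *Tnfaip3*, which encodes the ubiquitin-editing enzyme A20 (ENSMUSG00000019850, chr10:19000910-19015657), had 16.4 FPKM in WT, 3.68 in mosaic *Brg1*-sufficient, 3.40 in mosaic *Brg1*-deleted, 6.99 in untreated rKO1, 37.8 in GFP+ and 16.7 FPKM in GFP− cells. This 11.1-fold span was the widest of the 10 genes, against 3.30-fold for *Nfkbia*. Of the 50 neighbouring pairs of libraries in the orders of the 10 genes, 6 are pairs that set the band. Of the other 44 pairs 2 differed beyond it, and both were of *Tnfaip3*, GFP+ over GFP− and WT over untreated rKO1. Neighbours are the closest libraries by construction, and the share of all genes was not counted for them. Libraries further apart also differed beyond the band. *Nfkbia* had a log2 ratio of -1.30 in untreated rKO1 against WT cells (band 0.99), and *Nfkbiz* one of -1.22 in GFP− against GFP+ cells (band 1.19).

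The genes of the IκB-like nuclear proteins differed in their order. *Nfkbiz*, which encodes IκBζ, a nuclear cofactor of p50 (ENSMUSG00000035356, chr16:55811375-55838899), had 20.9 FPKM in WT, 11.8 in mosaic *Brg1*-sufficient, 19.2 in mosaic *Brg1*-deleted, 24.4 in untreated rKO1, 28.7 in GFP+ and 12.3 FPKM in GFP− cells. It was higher in each of the 3 *Brg1*-deleted libraries than in either mosaic *Brg1*-sufficient or GFP− cells, but WT cells, which contain BRG1, lay among the deleted libraries. *Bcl3*, whose product binds p50 and p52 homodimers (ENSMUSG00000053175, chr7:19808462-19822770), had 34.9, 68.3, 45.8, 43.8, 30.5 and 42.9 FPKM in that order. Its levels were highest in mosaic *Brg1*-sufficient cells, where *Nfkbiz* was lowest, and lowest in GFP+ cells, where *Nfkbiz* was highest. Of its exon bases, 6.51% overlap *Gm16175*.

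**Figure D1:**
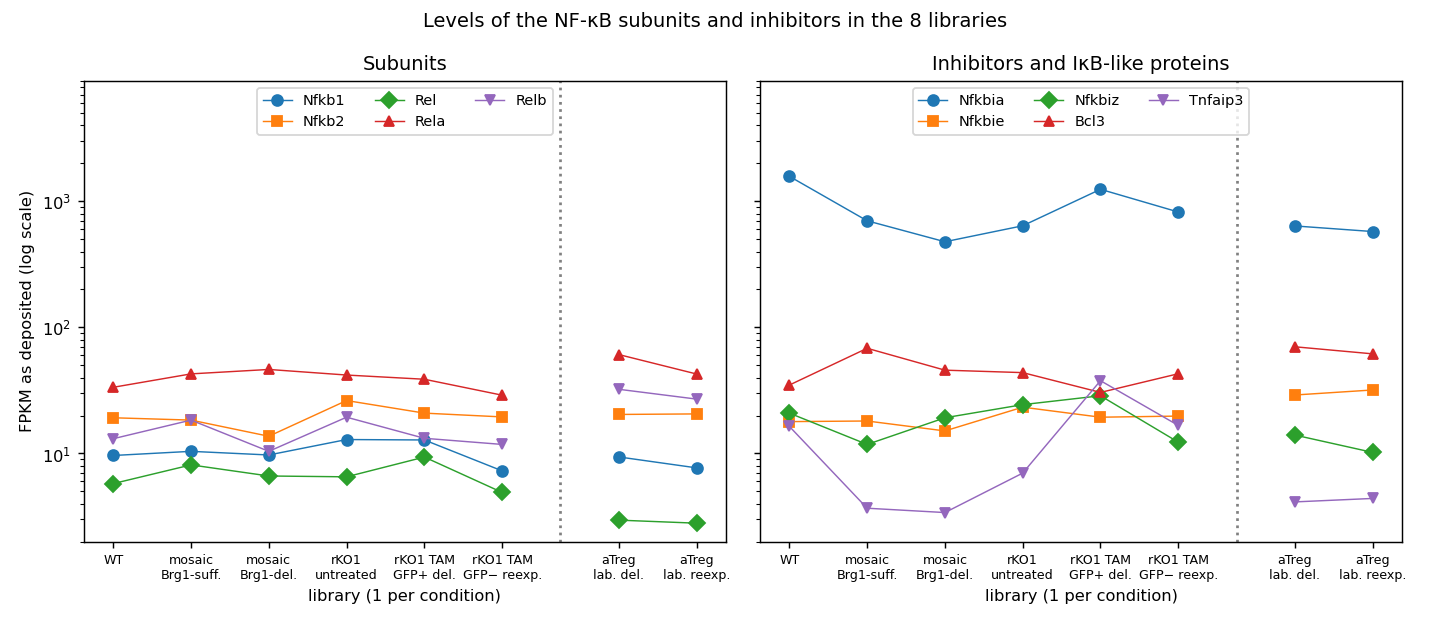
FPKM of the 5 subunit genes (left) and the 5 inhibitor and IκB-like genes (right) on a log axis, 1 point per library, with the 2 separately sequenced aTreg libraries right of the dotted line. Lines join the libraries of an experiment only to guide the eye, and *Tnfaip3* moves from 3.40 to 37.8 FPKM while the subunits stay within 1.60-fold to 1.91-fold.

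In the mosaic females, Treg cells with and without BRG1 from healthy mice were compared. The *Foxp3* copy in use, without or with Cre, differed together with BRG1, and their separate parts were not tested. None of the 10 genes differed 2-fold between *Brg1*-sufficient and *Brg1*-deleted cells, where 5.93% of the 10002 tested genes did. None lay beyond the band either, against 3.15% of all tested genes. The nearest was *Relb*, 18.4 against 10.4 FPKM, 1.78-fold higher with BRG1 (1.64 to 1.93). Its log2 ratio of 0.83 was inside the band of 1.14 but outside 0.77, the band of the rKO1 pair alone. *Bcl3* (68.3 against 45.8 FPKM, 1.49-fold) and *Nfkbia* (701 against 478 FPKM, 1.47-fold) also had higher values with BRG1. *Nfkbiz* had the lower value with BRG1, 11.8 against 19.2 FPKM, which is 1.62-fold higher in deleted cells (1.52 to 1.74) and inside the band. The interval for *Tnfaip3* reached across no difference, with 3.68 against 3.40 FPKM and a log2 ratio of 0.11 (-0.06 to 0.28). The median log2 ratio of the 10 genes was 0.28, against 0.02 over all tested genes, and 8 of 10 had the higher value in *Brg1*-sufficient cells. The share of all tested genes with the higher value there was not counted. Scaled by the total reads alone, *Nfkb1* and *Tnfaip3* changed sign. Of all genes that differed 2-fold, 64.6% were higher in *Brg1*-sufficient cells, and 50.2% with total scaling.

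Reexpression in rKO1 mice asks what follows when BRG1 returns. GFP− *Brg1*-reexpressed cells had lower values than GFP+ *Brg1*-deleted cells for 8 of the 10 genes, and 2 were at least 2-fold lower, *Nfkbiz* and *Tnfaip3*, where 12.7% of the 10333 tested genes differed 2-fold. *Nfkbiz* had 12.3 against 28.7 FPKM, 2.33-fold lower (2.17 to 2.52), and *Tnfaip3* had 16.7 against 37.8 FPKM, 2.26-fold lower (2.15 to 2.39). Both were just beyond the band, *Nfkbiz* with a log2 ratio of -1.22 against 1.19 and *Tnfaip3* with -1.18 against 1.13, and 7.19% of all tested genes lay beyond it. With the trimmed mean of M-values (TMM) in place of the authors' scaling, these ratios became -1.17 and -1.13, no further than the edge of the band. *Rel* (4.91 against 9.37 FPKM, a log2 ratio of -0.93) and *Nfkb1* (7.28 against 12.8 FPKM, -0.81) were inside the band, but outside that of the rKO1 pair alone. *Nfkbia* followed with 823 against 1246 FPKM (-0.60) and *Rela* with 29.0 against 38.8 FPKM (-0.42). The genes of the alternative pathway were close to level, with log2 ratios of -0.10 for *Nfkb2* and -0.16 for *Relb*, as was *Nfkbie* at 0.03. *Bcl3* had the higher value with BRG1, 42.9 against 30.5 FPKM, a log2 ratio of 0.49 (0.38 to 0.60). The median of the 10 genes was -0.51, against 0.00 over all tested genes, which by this median lay about evenly on either side of no difference.

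The size of that shift depends on the scaling of the GFP− library. With total reads alone, the median of all tested genes moved to -0.30, that of the 10 genes to -0.81, and 4 of the 10 were at least 2-fold lower, *Nfkb1* and *Rel* being added. Of the 10333 tested genes, 1616 were then at least 2-fold apart either way, against 1310 with the authors' scaling. The share of all 2-fold genes that were higher in GFP− cells was 48.9% with the authors' scaling and 23.0% with total scaling.

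**Figure D2:**
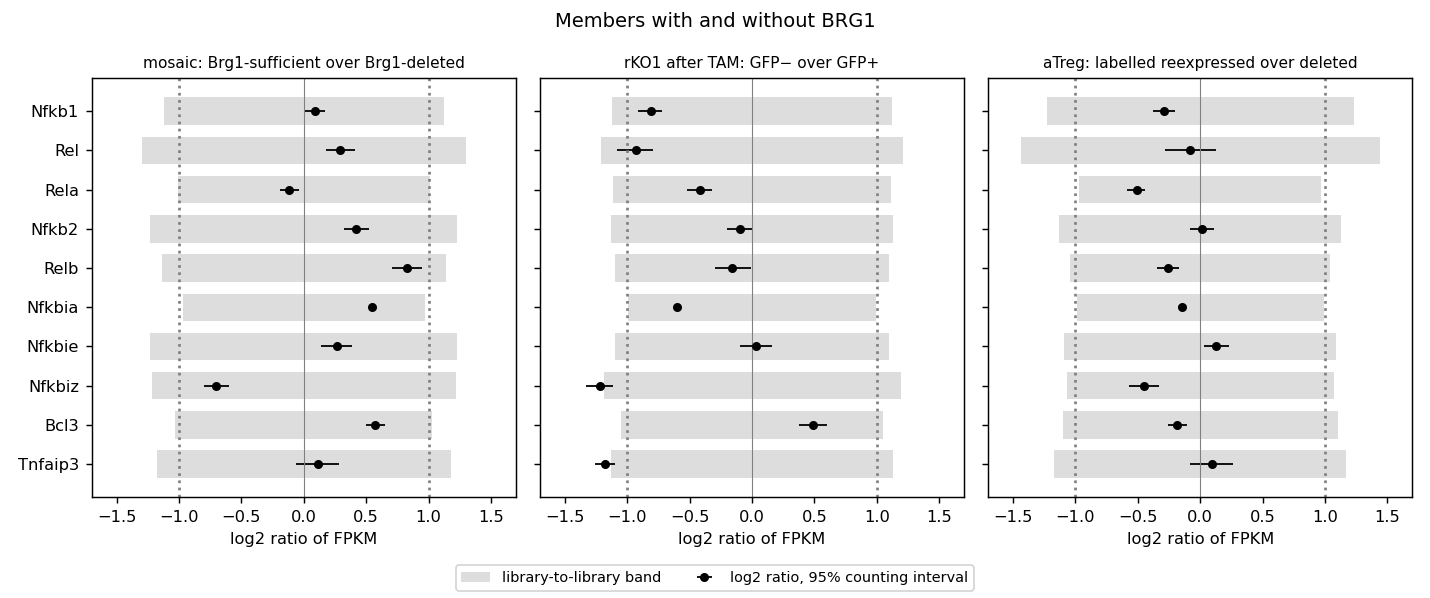
Log2 ratio of FPKM (x axis) of each of the 10 genes in the 3 comparisons with and without BRG1, with exact 95% counting intervals as horizontal lines, the library-to-library band in grey and 2-fold as dotted lines. Only *Nfkbiz* and *Tnfaip3* in the middle panel, at -1.22 and -1.18, reach past the grey bands.

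Deleted and BRG1-containing cells were then compared between mice. The paper reports severe inflammation in rKO1 mice and calls the mosaic and WT mice healthy. Inflammation of the mice thus differed together with BRG1 state here, and their separate parts were not tested. Untreated rKO1 cells against WT cells differed 2-fold in 2 of the 10 genes, with 16.0% of 10661 tested genes doing so. *Nfkbia* was 2.47-fold lower (2.42 to 2.51) in rKO1 cells and *Tnfaip3* 2.35-fold lower (2.17 to 2.55), both beyond the band, while the other 8 genes had higher values in rKO1 cells by up to 0.56 in log2 (*Relb*). The median log2 ratio of the 10 genes was 0.33, against -0.05 over all tested genes. With total scaling the log2 ratios of *Nfkbia* and *Tnfaip3* were -0.99 and -0.92, short of 2-fold. Against the mosaic *Brg1*-sufficient library, however, neither was 2-fold lower. *Nfkbia* had a log2 ratio of -0.13, *Tnfaip3* one of 0.92 with the higher value in rKO1 cells, and *Nfkbiz* was 2.06-fold higher (1.92 to 2.21) and inside the band, the 1 gene past 2-fold where 17.6% of 10621 tested genes were. With TMM the ratio of *Nfkbiz* was 0.96 and it was no longer 2-fold. These comparisons share the untreated rKO1 library. With total scaling, the shares of 2-fold genes that were higher in untreated rKO1 cells rose from 56.0% to 78.0% against WT and from 58.3% to 78.1% against mosaic *Brg1*-sufficient cells, and the median of all tested genes to 0.26 and 0.28.

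The pairs that the study treats as alike differed in the same inducible genes. WT and mosaic *Brg1*-sufficient cells both contain BRG1, yet *Tnfaip3* was 4.46-fold higher (4.06 to 4.93) and *Nfkbia* 2.25-fold higher (2.22 to 2.29) in WT cells, 2 of the 10 genes where 9.17% of 10014 tested genes differed 2-fold. *Bcl3* ran the other way, with 34.9 FPKM in WT and 68.3 FPKM in mosaic *Brg1*-sufficient cells, a log2 ratio of -0.97 that became -1.07 with TMM, -1.02 with total reads and -1.01 with median-of-ratios, past 2-fold. Both rKO1 libraries without BRG1 differed in *Tnfaip3*, which was 5.41-fold higher (5.04 to 5.82) in GFP+ cells after TAM than in untreated cells, where 4.69% of 10573 tested genes differed 2-fold. This was the largest ratio of any of the 10 genes in the 9 comparisons. *Nfkbia* was 1.95-fold higher (1.91 to 1.98) in the same direction. Between GFP+ and GFP− cells, *Tnfaip3* differed 2.26-fold. WT and mosaic *Brg1*-sufficient cells also differ in genotype and Cre allele, and GFP+ and untreated cells in TAM. The parts of these in the values of *Tnfaip3* were not tested. Of all 2-fold genes, 57.6% were higher in WT than in mosaic *Brg1*-sufficient cells, and 45.2% with TMM. In GFP+ against untreated cells the share was 48.2%, and 35.5% with total scaling.

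Reexpressing cells were also set beside both BRG1-containing controls. The reexpressing cells came from rKO1 mice, so inflammation of the mice differed here as well. These cells were also taken after TAM, which the labels do not give for the controls. The separate parts of inflammation and TAM were not tested. None of the 10 genes differed 2-fold between GFP− and WT cells, where 16.7% of 10129 tested genes did. *Tnfaip3* had 16.7 against 16.4 FPKM (log2 ratio 0.02, -0.07 to 0.12), and the lowest ratio was that of *Nfkbia*, -0.94. Against mosaic *Brg1*-sufficient cells only *Tnfaip3* was past 2-fold, 4.53-fold higher in GFP− cells with a log2 ratio of 2.18 (2.05 to 2.32), and 21.2% of 10116 tested genes were past it. *Nfkbiz* had 12.3 against 11.8 FPKM there, a log2 ratio of 0.06 (-0.07 to 0.18) that changed sign with TMM and total scaling. Of all 2-fold genes 54.1% were higher in GFP− than in mosaic *Brg1*-sufficient cells, and 42.5% with total scaling.

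**Figure D3:**
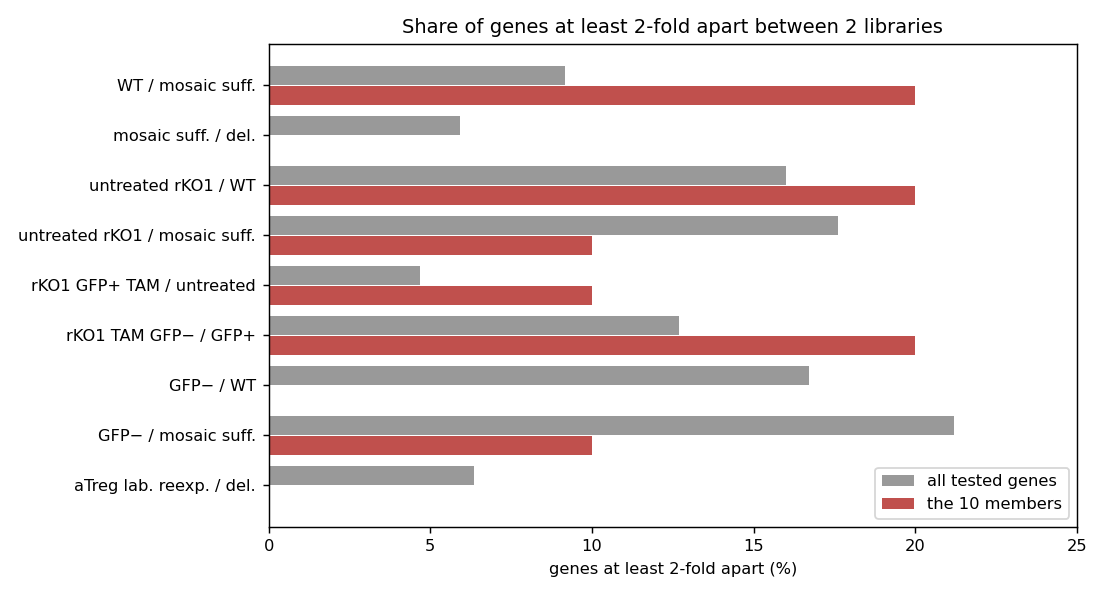
Share of the 10 genes (red) and of all tested genes (grey) at least 2-fold apart in each of the 9 comparisons, in percent from 0. The red bars stand for 0, 1 or 2 genes, and are absent in the mosaic, GFP− over WT and aTreg comparisons.

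Immediate-early genes, which respond to many stimuli, were followed on 1 list with dissociation genes, and the list includes *Hspa1a*, *Hspa1b* and *Hspa8*. Genes on the list differed in most of the comparisons in which *Tnfaip3* and *Nfkbia* did. *Fos* had 162 FPKM in WT, 7.52 in mosaic *Brg1*-sufficient, 8.60 in mosaic *Brg1*-deleted, 28.4 in untreated rKO1, 71.3 in GFP+ and 35.5 FPKM in GFP− cells. *Junb* had 1658, 174, 96.3, 259, 838 and 426 FPKM in the same order. Both were highest in WT and GFP+ cells, as was *Nfkbia*. *Dusp1*, which encodes a phosphatase of MAP kinases, had 270, 20.3, 14.6, 51.4, 167 and 88.7 FPKM. Of the 10 tested genes on this list of 12, 8 were at least 2-fold higher and 1 lower in WT than in mosaic *Brg1*-sufficient cells. The median log2 ratio was 3.49. In GFP+ against untreated rKO1 cells, 6 were higher and none lower, with a median of 1.22. In the mosaic comparison none of the 8 tested genes was past 2-fold and the median was 0.55. In GFP− against GFP+ cells 4 of 10, *Fosb*, *Jun*, *Atf3* and *Fos*, were lower and the median was -0.94. Against WT cells, 8 of 10 were lower in untreated rKO1 cells (median -2.01), where *Tnfaip3* and *Nfkbia* were lower too, and 9 of 10 were lower in GFP− cells (median -1.66), where *Nfkbia* had a log2 ratio of -0.94 but *Tnfaip3* was level at 0.02. *Egr1* ran the other way, with 61.3 FPKM in mosaic *Brg1*-sufficient and 11.8 FPKM in GFP+ cells. Against mosaic *Brg1*-sufficient cells, 4 of 9 were at least 2-fold higher and 2 lower in untreated rKO1 cells (median 0.57). In GFP− cells 3 of 8 were higher and 1 lower than in mosaic *Brg1*-sufficient cells (median 0.65). The part of these genes' common movement in the values of *Tnfaip3* and *Nfkbia* was not tested.

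Across the 6 total Treg libraries, Pearson's r of log2 FPKM with *Nfkbia* was 0.978 for *Junb*, 0.941 for *Jun* and 0.810 for *Tnfaip3*, and that of *Tnfaip3* with *Dusp1* was 0.903. Not all genes on the list of immediate-early and dissociation genes were alike. With *Tnfaip3*, r was -0.763 for *Egr1*, -0.069 for *Hspa8* and 0.562 for *Zfp36*. With *Nfkbia* these were -0.309, 0.152 and 0.829. These are descriptions over 6 points that share library, scaling and depth, and r of *Nfkbiz* with the same early genes was lower, 0.358 with *Junb* and 0.415 with *Dusp1*. *Bcl3* was opposed to *Tnfaip3* (-0.835) and to *Nfkbiz* (-0.753). Among 8523 genes with at least 5 CPM in all 6 libraries, the patterns most like *Tnfaip3* were those of *Ipp* (0.985), *Maip1* (0.984) and *Ociad1* (0.981), which spanned only between 1.38-fold and 1.61-fold. Near to *Nfkbia* were *Bloc1s5* (0.989) and *Nbdy* (0.989), and the nearest to *Nfkbiz* were *Fnip1* (0.985), *Gm46430* (0.982) and *Matr3* (0.981). *Fnip1* ranged from 1.33 to 3.44 FPKM, a 2.59-fold span like that of *Nfkbiz*.

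**Figure D4:**
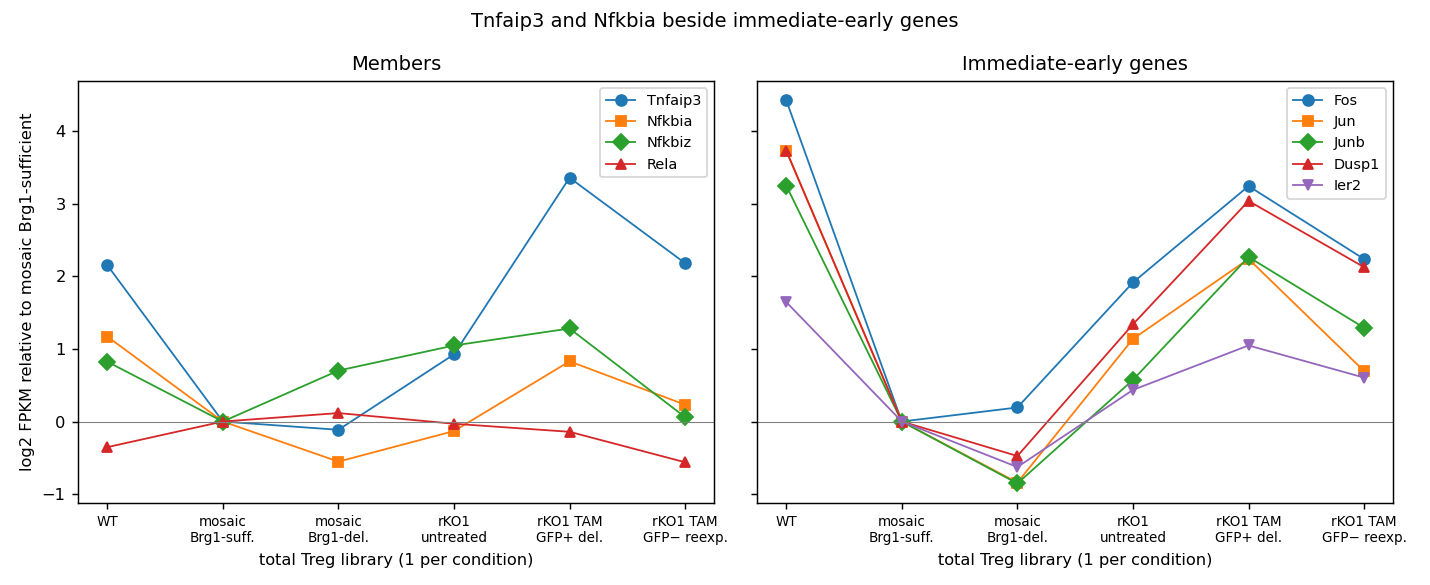
Log2 FPKM relative to the mosaic *Brg1*-sufficient library (y axis) in the 6 total Treg libraries, for 4 of the 10 genes (left) and 5 immediate-early genes (right). *Tnfaip3* and *Nfkbia* rise in WT and GFP+ cells together with *Fos*, *Jun*, *Junb*, *Dusp1* and *Ier2*, and *Rela* stays within 1 unit of the reference. *Tnfaip3* is as high in GFP− cells (16.7 FPKM) as in WT cells (16.4 FPKM).

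Other genes of the pathway were followed as lists. Of 11 other inhibitors and brakes, none differed 2-fold in the mosaic, GFP− over GFP+ or aTreg comparison. *Nfkbid*, which encodes a further nuclear IκB protein, was lower in untreated rKO1 than in WT cells (20.8 against 44.2 FPKM), and *Zc3h12a*, which encodes the RNase Regnase-1, was higher in WT than in mosaic *Brg1*-sufficient cells (4.96 against 2.27 FPKM). Of 10 IκB kinases and activators, only *Map3k14*, which encodes the kinase NIK of the alternative pathway, was past 2-fold in GFP− against GFP+ cells, with 1.46 against 3.10 FPKM. In other comparisons, *Tab2* was higher in untreated rKO1 than in WT cells (16.7 against 7.46 FPKM), and *Ikbke* was lower in GFP− than in WT cells (6.10 against 12.3 FPKM). Of 18 genes of the T cell receptor and adaptor route, of which 17 were tested, only *Birc2* was past 2-fold in any comparison, with 27.8 FPKM in untreated rKO1 and 9.66 FPKM in mosaic *Brg1*-sufficient cells. The median log2 ratio of this route was -0.16 in the mosaic, -0.09 in the GFP− over GFP+ and -0.20 in the aTreg comparison.

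Of 8 TNF receptors that signal to NF-κB, 5 were tested. *Tnfrsf1b*, which encodes TNFR2, a receptor that promotes Treg expansion, was higher in GFP− than in GFP+ cells (68.8 against 32.6 FPKM), and the median of the 5 was 0.60. *Tnfrsf1b* and *Tnfrsf9* (4-1BB) were also higher than in WT cells in untreated rKO1 cells (64.5 against 24.4 and 181 against 53.4 FPKM) and in GFP− cells (68.8 and 213 FPKM). Against mosaic *Brg1*-sufficient cells, GFP− cells had more *Tnfrsf9* (213 against 91.2 FPKM) and less *Tnfrsf1a* (4.01 against 11.7 FPKM). The *Tnfrsf1b* value of WT cells was itself less than that of mosaic *Brg1*-sufficient cells, 48.9 FPKM, by more than 2-fold. *Tnfrsf1a* had 4.01 FPKM in GFP− and 7.43 FPKM in GFP+ cells, the lower value with BRG1, while the other 4 tested receptors had the higher value.

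Of 16 other known target genes, all tested, 2 were higher and none lower with BRG1 in the mosaic females, *Ltb*, which encodes lymphotoxin β (1570 against 565 FPKM), and *Gadd45b* (67.4 against 30.9 FPKM). The median of the 16 was 0.03. In GFP− against GFP+ cells none was higher and 2 were lower, *Lta*, which encodes lymphotoxin α (33.8 against 148 FPKM), and the activation marker *Cd83* (17.1 against 47.0 FPKM), with a median of 0.12. *Gadd45b* had its highest value in WT cells, 215 FPKM, and was higher in GFP+ than in untreated rKO1 cells, 144 against 38.0 FPKM, as was *Tnfaip3*, but it had 155 FPKM in GFP− cells, where *Tnfaip3* was lower than in GFP+ cells. The paralogs *Bcl2a1b* and *Bcl2a1d*, which encode antiapoptotic A1 proteins, were higher in untreated rKO1 than in mosaic *Brg1*-sufficient cells (94.8 against 42.2 and 193 against 63.1 FPKM), but their sequences are nearly identical and reads can be split between them.

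Markers of other cells are given beside these values. The summed FPKM of 6 myeloid markers was 583 in WT and between 266 and 363 in the other total Treg libraries, with *Lyz2* at 313 FPKM in WT and at most 96.5 FPKM in the others. Of the myeloid markers tested, 2 of 4 were at least 2-fold lower in GFP− than in GFP+ cells, *Fcer1g* (30.5 against 83.6 FPKM) and *Lyz2* (20.4 against 51.5 FPKM). *Csf1r* had 0.830 against 1.57 FPKM, and *Cst3* had the higher value in GFP− cells, 289 against 202 FPKM. The sum of the 6 myeloid markers was level, 341 against 339 FPKM. Of 4 plasma cell markers, *Jchain* and *Mzb1* were lower in GFP− cells too, 4.93 against 10.6 and 1.75 against 5.11 FPKM. Of 5 markers of CD8 T or NK cells, 2 were tested there. *Ncr1* had 0 FPKM in GFP− and 4.75 FPKM in GFP+ cells, while *Cd8b1* had the higher value in GFP− cells, 8.03 against 6.52 FPKM. The sum of these 5 markers was 8.23 FPKM in GFP− and 13.6 FPKM in GFP+ cells. Of the B cell markers 2 were tested in total Treg cells, and *Pax5* stayed below 1 FPKM in all 8 libraries. *Cd79b* had 45.8 FPKM in WT, 21.6 in mosaic *Brg1*-sufficient, 16.4 in mosaic *Brg1*-deleted, 5.68 in untreated rKO1, 7.88 in GFP+ and 15.8 FPKM in GFP− cells, and *Cd79a* had 8.68, 8.97, 15.3, 3.06, 4.41 and 3.56 FPKM. Both were thus more than 2-fold lower in untreated rKO1 than in WT cells, with a median log2 ratio of -2.25. *Nfkbia* and *Tnfaip3* were lower in that comparison. Both B cell markers were also 2-fold lower in untreated rKO1 than in mosaic *Brg1*-sufficient cells (median -1.74). There *Tnfaip3* had a log2 ratio of 0.92 and *Nfkbia* one of -0.13. In GFP− against WT cells both markers were 2-fold lower too (median -1.41), with *Tnfaip3* at 0.02 and *Nfkbia* at -0.94. The sums of the erythroid markers ranged from 200 to 859 FPKM and were highest in GFP+ cells. Of the 6 Treg markers, only *Ctla4* was at least 2-fold higher in GFP− than in GFP+ cells (212 against 76.7 FPKM). None was 2-fold lower, and the median log2 ratio of the 6 was 0.05. The part of other cells in the values of the 10 genes was not tested.

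In aTreg cells none of the 10 genes differed 2-fold, where 6.36% of 10041 tested genes did, and none lay beyond the borrowed band, where 3.08% did. *Rela* had 42.7 FPKM in the library labelled *Brg1*-reexpressed and 60.9 FPKM in the library labelled *Brg1*-deleted, 1.43-fold lower with a log2 ratio of -0.51 (-0.59 to -0.44) and the widest ratio of the 10. *Nfkbiz* had 10.2 against 14.0 FPKM, 1.37-fold lower (1.26 to 1.49), and thus its value was lower in the library labelled reexpressed here as in total Treg cells. *Nfkb1* had 7.69 against 9.39 FPKM, *Relb* 27.0 against 32.3 FPKM and *Bcl3* 61.7 against 70.2 FPKM. *Nfkbia* had 576 against 638 FPKM, a log2 ratio of -0.15. The others were closer to level, with *Nfkb2* at 20.6 against 20.4 FPKM, *Rel* at 2.80 against 2.96 FPKM and *Nfkbie* at 31.9 against 29.1 FPKM. *Tnfaip3*, which differed most in total Treg cells, had 4.40 against 4.13 FPKM, a log2 ratio of 0.09 (-0.08 to 0.26). The median of the 10 genes was -0.17, against -0.10 over all tested genes.

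All these directions rest on labels that the level of *Smarca4* goes against. The library labelled *Brg1*-reexpressed also held 2.25% of its reads in 5 erythroid genes, against 0.119% in the other, and all 5 were past 2-fold with a median log2 ratio of 4.49. *Hba-a1* had 10281 against 755 FPKM and *Hbb-bs* 13167 against 587 FPKM. With TMM scaling the median of the 10 genes was -0.12 and that of all tested genes -0.06. Of the immediate-early genes, *Jun* was 4.83-fold lower in the library labelled reexpressed (2.43 against 11.8 FPKM), while *Junb* had 285 against 321 FPKM. *Bcl2a1d* was the only 1 of 16 other target genes past 2-fold, with 186 against 88.2 FPKM.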

How the data were processed

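RNA of total Treg cells (6 libraries) and aTreg cells (2 libraries) of mice was copied into full-length cDNA and read as paired ends. The authors deposited FPKM values for each Ensembl gene, and the processing notes of the submitters name HISAT2 2.0, StringTie 1.3.3b, featureCounts 1.5.0-p3 and mm10. Their scaling differed between the experiments: the total that the FPKM imply was between 0.815 and 1.08 times the recovered reads in total Treg libraries and 1.00 times in aTreg libraries. Groups were taken from the sample titles.

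Reads were recovered by multiplying FPKM by the merged exon length in GENCODE M21 (GRCm38, 53360 of 53465 identifiers) and by the step of each library. They were whole within 0.05 reads in every library for 93.6% of 26020 genes (total Treg) and 100% of 21242 genes (aTreg). Those of *Nfkb2*, *Rela* and *Nfkbie* in total Treg cells were not whole and were rounded. 1 read was between 0.0415 and 0.0613 CPM. Counting intervals do not cover variation between animals, and PCR duplicates are not independent molecules. Log2 ratios used FPKM plus 0.01. All 9 comparisons have 1 library per side, so that no p-value is given. The alternatives were TMM (trimming 30% of ratios and 5% of levels), total reads, median-of-ratios size factors, a pseudocount of 1 FPKM, a filter of 1 FPKM, no filter, a 1.5-fold threshold, the band, the rKO1 band alone and removal of a running median over exon length (501 genes). Recovery and calls were tested on simulated data. The members, lists and comparisons were chosen with earlier results of these data known. All 10 members are named, and in each other list and comparison up to 4 tested genes with the largest ratio among those past 2-fold. The other named genes are *Smarca4*, *Foxp3* and, for the 3 members of widest range, the 3 genes of highest r. Results for some genes that these rules name are not reported here. A few values within a list (*Junb*, *Dusp1*, *Egr1*, *Ltb* and the like where not past 2-fold, the shared r values, and the marker values) were chosen after they were seen. The scripts ran in Python 3.11.15 with pandas 2.3.3, SciPy 1.17.1, NumPy 2.4.6 and, for figures, matplotlib 3.10.9.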

Additional observations from a re-analysis of the deposited data

Results flagged for a closer look

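A gene is given here when its log2 ratio, with over without BRG1, had opposite signs in 2 of the mosaic, rKO1 and aTreg comparisons and both counting intervals excluded 0. This held in 9 cases, each with 1 library per side, and the difference was not tested. Between the mosaic females and the rKO1 mice after TAM, the ratios were 0.09 and -0.81 for *Nfkb1*, 0.29 and -0.93 for *Rel*, 0.83 and -0.16 for *Relb*, and 0.55 and -0.60 for *Nfkbia*. Between total Treg and aTreg cells of rKO1 mice, *Bcl3* had 0.49 and -0.19. Between the mosaic females and aTreg cells, the ratios were 0.09 and -0.29 for *Nfkb1*, 0.83 and -0.26 for *Relb*, 0.55 and -0.15 for *Nfkbia*, and 0.57 and -0.19 for *Bcl3*, with the aTreg labels in doubt as described. With total scaling *Nfkb1* was -0.04 in the mosaic females, so that its signs no longer differed, while the signs of the others held under TMM, total and median-of-ratios scaling. The same aTreg and mosaic libraries enter several of these cases.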

How the results depend on the processing

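With 1 library per condition no library could be left out. No paired analysis was possible because each group holds 1 library. No alternative reversed a 2-fold call. In the mosaic females, where none of the 10 genes was 2-fold apart, 2 passed 1.5-fold and 1 (*Relb*) the rKO1 band. There 1989 of all 10002 tested genes passed 1.5-fold. Counts over all genes by the rKO1 band were not made. In GFP− against GFP+ cells the 2 genes became 4 with total reads, 5 at 1.5-fold and 4 by the rKO1 band. Over all 10333 tested genes, 1310 became 1616 with total reads and 3140 at 1.5-fold. For untreated rKO1 against WT cells, the 2 became 0 with total reads, while 1707 of all 10661 tested genes became 2116. For untreated rKO1 against mosaic *Brg1*-sufficient cells, the 1 gene became 0 with TMM, median-of-ratios, a pseudocount of 1 FPKM, the band or the length correction. It became 2 with total reads or the rKO1 band, and 3 at 1.5-fold. Over all 10621 tested genes, 1873 became 1869 with TMM, 1867 with median-of-ratios, 1170 with the pseudocount and 1148 by the band. The number was 1845 with the length correction, 2087 with total reads and 4019 at 1.5-fold. In GFP+ against untreated cells the 1 became 2 at 1.5-fold, where 496 of all 10573 tested genes became 1696. For GFP− cells, the count against WT went from 0 to 1 with total reads and to 2 at 1.5-fold or by the rKO1 band. Over all 10129 tested genes, 1691 became 1711 with total reads and 3383 at 1.5-fold. The count of GFP− against mosaic *Brg1*-sufficient cells went from 1 to 4 at 1.5-fold, where 2149 of all 10116 tested genes became 4383. WT against mosaic *Brg1*-sufficient cells went from 2 to 3 (*Bcl3* added) with TMM, total reads or median-of-ratios, and to 4 at 1.5-fold. The matching counts over all genes are not given here for this comparison. The aTreg count was 0 throughout. Looser thresholds and narrower bands count more genes by construction, and the cause of the other moves was not tested. At the median level of the 10 genes in the GFP− and GFP+ libraries, the band was 1.18 and that of the rKO1 pair alone 0.78. Among the log2 ratios of single members, 59 moved by more than their counting interval with total reads, 36 with the length correction, 12 with TMM, 5 with median-of-ratios and 3 with a pseudocount of 1 FPKM. The number of all genes at least 2-fold apart depends most on the filter: in the mosaic comparison it was 593, 1421 with a filter of 1 FPKM, 7379 with none and 333 with a pseudocount of 1 FPKM, and in GFP− against GFP+ cells 1310, 2376, 8606 and 746.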
